A study of Mus musculus with 2 samples.

Results

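Within the bone marrow library of a mouse lymphoid progenitor study, 1219 of 7258 kept cells (16.8%, 15.9 to 17.7) met a marker rule for an early state like that of group 2 innate lymphoid cells (ILC2). Members were selected on measured UMIs of named genes. A cell was a member if it held at least 2 UMIs, that is, at least 2 distinct tagged RNA molecules, summed over Icos, Il17rb, Sdc1, Stxbp6 and Itgb3. It also had to hold fewer than 2 UMIs summed over Il1rl1, Areg, Ptpn13, Csf2 and Cysltr1, genes of more advanced ILC2 progenitors, called the late genes below. In the label, early refers to this exclusion. Cells with 2 or more UMIs of Dntt and Ly6d, with 2 or more of the natural killer (NK) genes Eomes, Ncr1, Klrk1, Klrb1c and Tbx21, with 10 or more of Cd74, or with 10 or more of the division genes Mki67, Top2a, Nusap1, Birc5 and Ube2c were left out. The members held 4557464 UMIs, with a median of 3373 UMIs and 1253 genes per cell. Every statement on these cells is a description of 1 library. Shares carry exact Clopper-Pearson and levels exact Poisson 95% intervals, which cover counting error only, and no test between conditions was possible.

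The study sorted progenitors that display the integrin α4β7 from untreated wild-type B6 mice, taking E14.5 fetal liver for 1 library and adult bone marrow for the other. The sort gate, shared by both libraries, was Lin−CD45+CD127+Flt3−α4β7+CD25−, so it removed cells with surface CD25, which Il2ra encodes and mature ILC2 display. The labels put 6 to 8 weeks on both samples, which cannot hold for a fetal liver and was used for bone marrow alone, and both carry 1 batch label. The sources used here give neither the number and sex of the animals nor any pooling. The kept bone marrow cells had a median of 3447.5 UMIs and the 8583 kept fetal liver cells a median of 9294, and 19 cell barcodes occurred in both libraries.

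ILC2 are tissue lymphocytes without rearranged antigen receptors that make type 2 cytokines when epithelial alarm signals reach them. The receptors of these signals are IL-17RB for interleukin 25 and the product of Il1rl1 for interleukin 33, while ICOS is a costimulatory receptor that passes signals on to PI3 kinase. In bone marrow ILC2 arise from progenitors that pass through a stage with the transcription factor PLZF, encoded by Zbtb16, and they depend on Gata3, Rora, Bcl11b and Tcf7. The label of an early ILC2-like state was checked against general ILC2 markers that the rule did not use. Gata3 stood at 645 UMIs per 1000000 UMIs summed over the members (CPM), Rora at 996 CPM and Bcl11b at 279 CPM, against 128, 104 and 188 CPM in the 480 cells with 2 or more UMIs of Dntt and Ly6d, called Dntt or Ly6d cells below. Klrg1, a receptor of mature ILC2, stood at 2.19 CPM, and Il2ra at 7.02 CPM. Tcf7 was lower in members, at 165 CPM against 353 CPM in those cells. Gata3 and Rora were thus well above the Dntt or Ly6d cells, Bcl11b less so and Tcf7 not, and Klrg1 and Il2ra were low, the latter being selected against by the gate. High Gata3 and Rora were not particular to members. In the Zbtb16-positive and the Il1rl1 or Areg cells defined below, Gata3 stood at 438 and 660 CPM and Rora at 967 and 633 CPM.

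Icos carried most of the selection. At least 1 UMI of Icos was found in 1039 members (85.2%, 83.1 to 87.2), of Stxbp6 in 396 (32.5%), of Il17rb in 368 (30.2%), of Itgb3 in 330 (27.1%) and of Sdc1 in 227 (18.6%). Icos gave 60.7% of all marker UMIs, and 313 members held no other marker. In 393 members a single marker gene was seen, in 569 a pair, in 203 a set of 3, in 50 a set of 4 and in 4 all 5. As levels, Icos stood at 597 CPM, Stxbp6, whose product binds SNARE proteins of vesicle fusion, at 133 CPM, Il17rb at 100.3 CPM, Itgb3, the integrin β3 chain, at 88.2 CPM and Sdc1, a heparan sulfate proteoglycan, at 64.7 CPM. In the Dntt or Ly6d cells, which should lack Icos and had a median of 6300 UMIs, 5.62% held a UMI of it, and with every cell thinned to 2000 UMIs the share was 68.1% in members and 1.69% in those cells. These values chose the cells and are given as a description.

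Many members lay near the threshold. The marker sum was 2 in 479 members (39.3%), 3 in 248, 4 in 190 and 5 or more in 302 (24.8%), up to 19. Just outside, 965 cells that met the other conditions held 1 marker UMI and 2324 held none. On the other side of the rule, 349 members (28.6%) held 1 UMI of the late genes, and 205 cells with enough marker UMIs were left out for exactly 2.

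**Figure D1:**
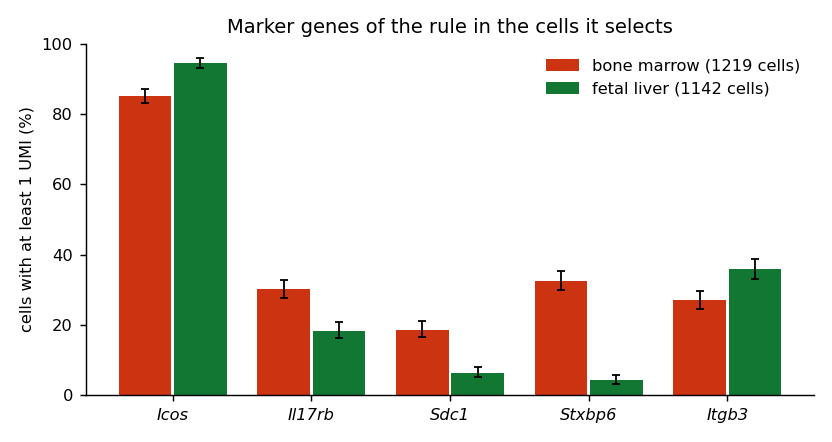
Share of cells with at least 1 UMI of each marker gene (percent) among the cells that the rule selects in bone marrow (red) and in fetal liver (green), with exact 95% intervals for counting error. Icos was seen in 85.2% and 94.7% of the cells, while Stxbp6 was seen in 32.5% and 4.20%.

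Each of the other markers was seen more often in cells with Icos than in cells without when cells were compared at the same depth. For this, the 4508 bone marrow cells that met all other conditions were each thinned to 2000 UMIs, which left 3795 cells. Il17rb was seen in 14.7% (12.4 to 17.2) of cells with Icos and in 3.80% (3.13 to 4.56) of those without. Stxbp6 was seen in 14.0% and 4.45%, Itgb3 in 11.4% and 5.28%, and Sdc1 in 7.24% (5.63 to 9.13) and 4.52% (3.79 to 5.34). Il17rb was seen in 10.2% of cells with Sdc1 and 6.17% of those without. All 5 genes are those of the rule, so these shares are a description and support nothing.

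In mm10 with GENCODE M21 gene models, Icos lies at chr1:60977927-61000320, Il17rb at chr14:29996135-30008896, Sdc1 at chr12:8771323-8793715, Stxbp6 at chr12:44852484-45074709 and Itgb3 at chr11:104608000-104670476. Il17rb, on the minus strand, names the state, so the bases before its start are shown. RefSeq's table for GRCm38.p6 held the start regions of Il17rb, Sdc1 and Stxbp6. Each was searched on both strands for AGATAA, a core of GATA factor motifs, and for TGACTCA, the motif of AP-1 (Fos and Jun) factors. Of the 3, that of Il17rb held TGAGTCA, the reverse complement of the AP-1 motif, 104 bases before the start, and none held the GATA core. The 300-base windows of all 32851 promoters in the table held the AP-1 motif in 5.20% and the GATA core in 11.2%. Such a match of letters is a description and not a binding site. The 250 bases at chr14:30008897-30009146, minus strand, read 5′ to 3′, with the AP-1 match in capitals, are:
Il17rb: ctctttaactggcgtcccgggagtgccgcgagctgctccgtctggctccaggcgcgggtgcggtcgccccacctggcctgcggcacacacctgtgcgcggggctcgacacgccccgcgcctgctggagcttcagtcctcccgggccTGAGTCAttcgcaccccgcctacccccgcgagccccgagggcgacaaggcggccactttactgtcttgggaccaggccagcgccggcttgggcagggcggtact

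To place the members, they were set against 958 bone marrow cells (13.2%) that met the exclusions, held fewer than 2 marker UMIs and had a Zbtb16 UMI, called Zbtb16-positive below. Zbtb16-positive cells had a median of 4045.5 UMIs, against 3373 in members. Genes that go with the marker genes can differ through this choice alone, and its part in the ratios was not tested. Members held more RNA of Pxdc1, Ly6a, Ccr9 and Stab2, and less of Tcf7, Runx3, Fcer1g and Tyrobp. Of 2365 genes that reached 50 CPM in the higher set, 69 (2.92%) were at least 2-fold higher in members and 43 (1.82%) at least 2-fold lower, around a median log2 ratio of 0.03. The 23 genes of the rule, and Zbtb16 here, were left out of these counts. The direction is members over Zbtb16-positive cells throughout this comparison.

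Among the transcription factors of ILC2, 4 of 9 compared genes were at least 2-fold higher and 1 lower, where 4.37% and 2.38% of the 6843 genes that reached 10 CPM were. The list's median log2 ratio was 0.56, against 0.03 over all these genes. The same shares and median over all genes are the base for every list count of this comparison. Bcl11b (chr12:107910403-108003602), a zinc finger factor that marks commitment to ILC2, stood at 279 CPM (1271 UMIs) in members and 112 CPM (481 UMIs) in Zbtb16-positive cells, a log2 ratio of 1.32 (1.17 to 1.47). Bhlhe40 stood at 75.9 and 19.1 CPM (1.99), Maf at 423 and 181 CPM (1.23) and Ets1 at 429 and 206 CPM (1.06). Gata3 (chr2:9857078-9890034), the master factor of ILC2, was at 645 and 438 CPM, a log2 ratio of 0.56 (0.47 to 0.64), and so under 2-fold. Rora (0.04) and Id2 (0.14), both at about 1000 CPM or more, were close to even. Tcf7 (chr11:52252371-52283014), which encodes TCF-1, went the other way, with 165 CPM in members and 485 CPM in Zbtb16-positive cells (-1.55, -1.67 to -1.43).

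The surface and effector genes of ILC2 counted 4 of 11 compared genes at least 2-fold higher and 0 lower, with a median of 0.98. Ly6a, the stem and lymphocyte antigen Sca-1, was found at 110.2 CPM against 8.60 CPM (3.68), and in 261 members. Calca (chr7:114631478-114636357), which encodes the calcitonin gene-related peptide, was found at 113 against 17.9 CPM (2.65, 2.31 to 3.02). Il4 was at 25.7 against 6.04 CPM (2.09) and Cd200r1 at 12.1 against 2.32 CPM (2.38, 1.39 to 3.51, from 55 and 10 UMIs). Among genes that reached 50 CPM the largest ratio outside the rule was that of Pxdc1 (chr13:34627834-34653486), at 5.99 with 270 UMIs in 210 members and 4 UMIs in Zbtb16-positive cells, 59.2 against 0.930 CPM and a counting interval of 4.62 to 7.88. Stab2 (chr10:86841198-87008025), a scavenger receptor, followed Ly6a and Ccr9 with 180.4 against 17.9 CPM (3.33). Skap1, an adaptor of antigen receptor and integrin signalling, was at 180.6 against 28.4 CPM (2.67). Gclc, an enzyme of glutathione synthesis, was at 164 against 28.1 CPM (2.54), and Hlf, a transcription factor also known from stem cells, at 129 against 21.1 CPM (2.61).

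Of these 10 largest genes the promoter table held 7, and 1 of them, Calca, had a GATA core (14.3%), close to the 11.2% of all promoters. Its promoter is shown as that of the peptide gene described above, and nothing is read from the match. Its match, TTATCT, which is the reverse complement of AGATAA, begins 218 bases before the start. The 250 bases at chr7:114636358-114636607, minus strand, read 5′ to 3′, with the match in capitals, are:
Calca: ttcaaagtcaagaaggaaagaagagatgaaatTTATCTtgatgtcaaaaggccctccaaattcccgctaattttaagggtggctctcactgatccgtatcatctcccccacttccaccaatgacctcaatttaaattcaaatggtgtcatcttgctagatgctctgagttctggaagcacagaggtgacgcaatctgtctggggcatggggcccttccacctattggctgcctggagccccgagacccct

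Of 8 chemokine and egress genes compared, 3 were at least 2-fold higher and 0 lower, and 5 lay within 2-fold. Over all genes that reached 10 CPM, 4.37% were higher and 2.38% lower. Ccr9, the receptor of the gut and thymus chemokine CCL25, stood at 119 against 9.53 CPM (3.65), and Cxcr6 (chr9:123806475-123811760), the receptor of CXCL16, at 127 against 15.3 CPM (3.06). Klf2, which drives egress genes, was at 397 against 194 CPM (1.03). Of 11 cytokine receptor genes, 1 was higher (Ifngr2, 12.1 against 2.79 CPM), 1 lower (Il2rb, 8.996 against 20.2 CPM), and 9 lay within 2-fold. These 9 included Il18r1 at 428 against 222 CPM (0.95, 0.83 to 1.06) and Il7r at 581 against 458 CPM (0.34). The tumour necrosis factor receptor gene Tnfrsf25, whose product binds TL1A, stood at 19.5 against 2.56 CPM (2.93). Cxcl2, a neutrophil chemokine, stood at 406 against 49.7 CPM (3.03). It was seen in 245 members, with up to 65 UMIs in a cell.

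Most partners of the marker receptors lay within 2-fold, as did most genes: 4.37% of all that reached 10 CPM were higher and 2.38% lower. In the interleukin 25 receptor pathway 1 of 7 compared genes was at least 2-fold higher and 0 lower, with a median of 0.08. That gene was Nfkbiz, a nuclear cofactor of NF-κB, at 123 against 45.8 CPM (1.43). Il17ra, the chain that pairs with IL-17RB, was at 33.8 against 22.1 CPM (0.61, 0.24 to 1.00), and Traf6 was at 10.1 against 9.53 CPM (0.08). No UMI of Il25 was found in members, where 3 counts correspond to 0.658 CPM. In the list of ICOS signalling, which runs through PI3 kinase, 1 of 10 genes was higher (Foxo1, 14.48 against 6.74 CPM, 1.104) and 0 lower. Pik3r1 stood at 84.3 against 52.8 CPM (0.68). Of 8 integrin and syndecan genes outside the rule, Cd44 (1.43) and Sdc4 (1.27) were higher and 1 was lower.

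Of 9 NK and ILC1 genes outside the rule, 0 were at least 2-fold higher and 6 lower, with a median of -1.17, although cells with 2 UMIs of NK genes had been removed from both sets. Ccl3, Ccl4 and Xcl1 were among them (-1.97, -1.51 and -1.37). Their UMIs came from few cells: 129 of the 383 UMIs of Ccl4 in Zbtb16-positive cells lay in 1 cell, and without the highest cell of each set the ratio was -1.23. With 1 marker UMI enough for membership, Ccl4 turned to 0.65. Fcer1g, which encodes an ITAM adaptor, stood at 339 against 1455 CPM (-2.10, -2.18 to -2.02), and Tyrobp, which encodes the adaptor DAP12, at 256 against 946 CPM (-1.88). Runx3, a Runt factor of ILC1 and ILC3, was at 216 against 805 CPM (-1.90). Pdcd1, which encodes PD-1 and marks ILC progenitors, was at 42.3 against 95.1 CPM (-1.17). Of 16 common ILC progenitor genes 2 were higher, Cxcr6 among them, and 2 lower, with Tox2 (-0.78) and Tox (-0.79) within 2-fold. MHC class II genes counted 0 higher and 2 lower of 6, ILC3 and LTi genes 1 and 0 of 6, early lymphoid genes 1 and 0 of 7, costimulatory and checkpoint receptors 2 and 1 of 9, and Notch pathway genes 0 and 0 of 5. The shares over all genes that reached 10 CPM were 4.37% and 2.38%. The smallest ratios of genes that reached 50 CPM were those of Tnni1, a troponin of slow muscle, at 18.2 against 163 CPM (-3.16), and of Fgf3 at 18.9 against 119 CPM (-2.66). Nrgn, neurogranin, stood at 139 against 698 CPM (-2.33).

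Division genes were also compared, since cells in strong division had been removed. Of 14 S phase genes, 5 lay past 2-fold on the members' side and 0 on the other, with a median of 0.80. Rrm2, a subunit of ribonucleotide reductase, stood at 29.4 against 5.81 CPM (2.34) and Mcm5 at 26.1 against 9.06 CPM (1.53). Of 16 immediate early genes, 3 were higher and 1 lower, with Fosb at 964 against 367 CPM (1.39). The shift in these groups was recorded in the same cells as the ILC2 genes, and its part in the other ratios was not tested.

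**Figure D2:**
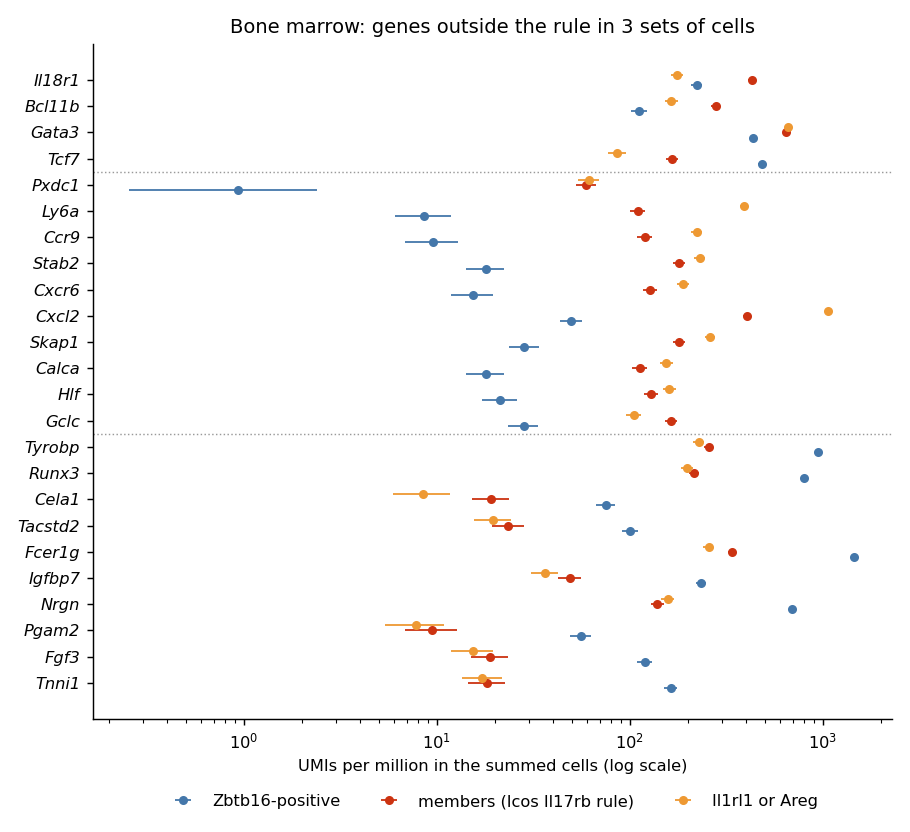
Level of the 10 genes with the largest and the 10 with the smallest ratio of members over Zbtb16-positive cells, and of Il18r1, Bcl11b, Gata3 and Tcf7 (y axis), in CPM on a log axis, for Zbtb16-positive cells (blue), members (red) and Il1rl1 or Areg cells (orange). Bars are exact Poisson 95% intervals for counting error; Pxdc1 stood at 0.930 CPM in Zbtb16-positive cells and 59.2 CPM in members, while Il18r1 was highest in members of the 3 sets.

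Members were then set against 1442 bone marrow cells (19.9%) that held 2 or more UMIs of the late genes and met the other exclusions, called Il1rl1 or Areg cells below. These cells had a median of 2269.5 UMIs, so members were the deeper set. Fewer genes separated members from these cells than from Zbtb16-positive cells, but the 2 sets were not chosen alike. Il1rl1 or Areg cells had no limit on marker UMIs, and 607 of them held 2 or more. Zbtb16-positive cells were chosen to hold fewer than 2. The part of this choice in the smaller count was not tested. Of 2304 genes that reached 50 CPM in the higher set, 15 (0.651%) were at least 2-fold higher in members and 27 (1.17%) at least 2-fold lower, with a median log2 ratio of 0.06. With TMM factors these counts were 12 and 38, and with each cell given the same weight they were 25 and 26. With each cell thinned to 2000 UMIs 24 genes were higher, and with at least 1000 genes required per cell 6 were.

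Of 17 common ILC progenitor genes compared, 5 were at least 2-fold higher in members, 0 were lower and 12 lay within 2-fold, against 1.54% and 1.53% of the 6733 genes that reached 10 CPM, and the list's median was 0.73 against 0.09 over all. Tox2 stood at 158 CPM in members and 49.5 CPM in Il1rl1 or Areg cells (1.67, 1.45 to 1.90). Il18r1, the receptor of interleukin 18 and a mark of ILC progenitors, stood at 428 and 176 CPM (1.29, 1.16 to 1.41). Pdcd1 was at 42.3 and 16.5 CPM (1.36), Sox4 at 433 and 193 CPM (1.16) and Lmo4 at 2994 and 1381 CPM (1.12). Members were thus lower than Zbtb16-positive cells in Pdcd1 and higher than Il1rl1 or Areg cells, with both ratios past 2-fold.

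Of the 10 ILC2 transcription factors compared, 0 were at least 2-fold higher in members and 2 were lower, Bhlhe40 at 75.9 and 235 CPM (-1.63) and Pparg at 6.80 and 17.7 CPM (-1.38). Gata3 was nearly level at 645 and 660 CPM (-0.03, -0.11 to 0.04). Bcl11b (0.76), Rora (0.66) and Maf (0.70) were higher in members by less than 2-fold. Of 15 ILC2 surface and effector genes, 6 were lower and 0 higher. Klrg1 stood at 2.19 and 12.02 CPM (-2.45, -3.60 to -1.46), Il2ra at 7.02 and 31.3 CPM (-2.16), Il13 at 4.39 and 15.5 CPM (-1.83) and Il4 at 25.7 and 73.0 CPM (-1.51). Ly6a stood at 110.2 and 392 CPM (-1.83). In interleukin 25 receptor signalling 0 of 7 genes were higher and 1 was lower, Nfkbiz at 123 and 303 CPM (-1.30), and all 10 genes of ICOS signalling lay within 2-fold. The gate removed cells by the product of Il2ra, so its level holds only for cells that passed it.

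Other genes on the lower side in members were Cish, a feedback inhibitor of cytokine signalling, at 23.9 and 95.2 CPM (-1.99), and Cxcl2 at 406 and 1064 CPM (-1.39). Ccl4 stood at 31.2 and 124 CPM (-1.99), with 138 of its 526 UMIs in 1 of the Il1rl1 or Areg cells. Prss34 and Pf4, whose ratios were -6.66 and -2.003, rested on 93 of 94 and 49 of 56 UMIs from 1 cell, and without the highest cell of each set their ratios were 1.48 and 0.90. On the higher side Bcas1 led with 154 and 44.1 CPM (1.81), followed after Tox2 by Atp8b4 (1.48) and by Ccl5, a chemokine of NK and T cells, with 2020 and 752 CPM (1.43). Ccl5 was seen in 583 members. Of 8 NK and ILC1 genes outside the rule 5 were lower and 1 higher, with a median of -1.17. This median turned to 0.79 for genes that reached 100 CPM, to 0.18 with 1 marker UMI enough for membership and to 0.13 with thinned cells. All 15 immediate early genes compared lay within 2-fold, with a median of -0.41, and all 14 S phase genes did too, with a median of 0.36.

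The order of the 3 sets was read gene by gene. Of 159 genes at least 2-fold higher in Il1rl1 or Areg than in Zbtb16-positive cells, members lay between the 2 sets for 151 (94.97%), and of 97 at least 2-fold lower genes, for 93 (95.9%). On a log2 scale with 0 at Zbtb16-positive and 1 at Il1rl1 or Areg cells, the members' median position was 0.645 for the first group and 0.585 for the second. The sets at 0 and 1 were chosen with unlike limits on marker UMIs, and the part of this in the positions was not tested. Middle positions were not particular to members. A further 2331 cells met the exclusions with fewer than 2 marker UMIs and no Zbtb16 UMI. They could thus hold 1 marker UMI and 1 late UMI. These 2331 cells lay between for 159 and 92 of these genes, with median positions of 0.368 and 0.268. Dntt or Ly6d cells lay between for 49 and 46. Il18r1, Bcl11b and Maf were instead higher in members than in both sets, with Bcl11b at 279 CPM against 112 and 164 CPM.

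Shares of cells with a UMI, were taken after thinning each cell to 2000 UMIs. This left 1052 members, 931 Zbtb16-positive and 875 Il1rl1 or Areg cells. Bcl11b was seen in 36.5% of members, 14.9% of Zbtb16-positive and 27.8% of Il1rl1 or Areg cells, and without thinning in 49.1%, 23.6% and 33.9%. Il18r1 was seen in 54.7%, 33.8% and 29.0%, and Tcf7 in 21.3%, 54.6% and 11.7% of thinned cells. Gata3 was seen in 68.7%, 53.9% and 68.5%, and in 23.4% of Dntt or Ly6d cells. Bcl11b was seen in 33.3% of Dntt or Ly6d cells, so it did not set members apart from these. Pxdc1 was seen in 9.98%, 0.107% and 12.2%, so that most members showed no UMI of it at this depth.

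Neighbourhoods gave a view of whole profiles. Each cell's 15 nearest neighbours were found on 30 principal components, with the 23 genes of the rule left out. Of the members' neighbours 40.8% were members, which made up 16.8% of the cells. Il1rl1 or Areg cells gave 22.4% of the members' neighbours and 19.9% of the cells, Zbtb16-positive cells 9.48% and 13.2%. In turn 20.9% of the neighbours of Il1rl1 or Areg cells were members, against 10.3% for Zbtb16-positive cells. The 2331 cells described above, 32.1% of the cells, gave 24.6% of the members' neighbours, more than either of these sets. They gave 42.4% of the neighbours of Zbtb16-positive cells. Among single members, 617 had Il1rl1 or Areg but no Zbtb16-positive neighbours, 274 the reverse, 253 had both kinds and 75 had neither. In 469 members (38.5%) more than 7 of the 15 neighbours were members. With rule genes left out, members were thus not a closed group, and whether their middle levels come from single cells at middle levels or from a mix of cells was not tested. Nor was the part that the unlike marker limits of the other sets have in these shares.

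**Figure D3:**
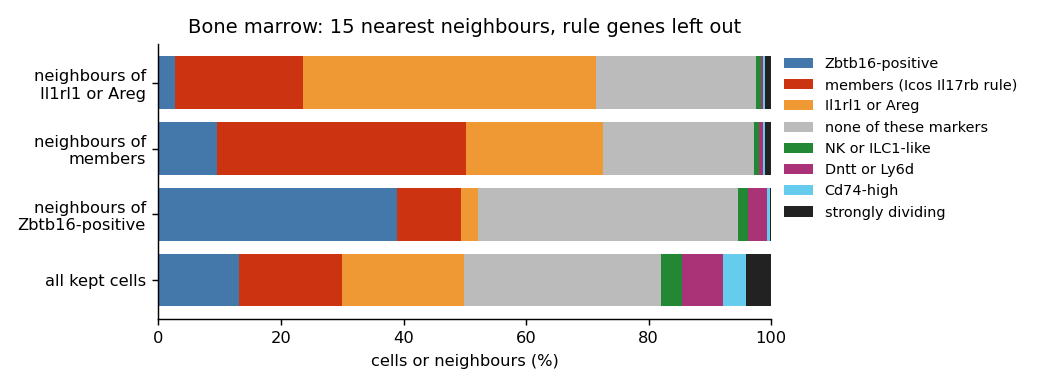
Make-up of all kept bone marrow cells (lowest bar) and of the 15 nearest neighbours of Zbtb16-positive cells, members and Il1rl1 or Areg cells, as percent on the x axis, with colours for the sets of cells. Members gave 40.8% of the neighbours of members, 10.3% of those of Zbtb16-positive cells and 20.9% of those of Il1rl1 or Areg cells.

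Genes outside the rule varied with the number of marker UMIs, across the threshold and within the members. From cells with 0 marker UMIs to cells with 5 or more, Gata3 went from 373 to 721 CPM, Bcl11b from 95.14 to 356 CPM, Stab2 from 27.4 to 227 CPM and Gclc from 31.4 to 230.5 CPM, with every step upward. Tcf7 went from 416 to 95.3 CPM, with every step downward. Runx3 stood at 737, 439, 323, 186, 143 and 145 CPM over the 6 steps, with the intervals of the last 2 overlapping. Fcer1g went from 1234 to 93.7 CPM. Ly6a had another shape, with 55.7 CPM at 0 marker UMIs, 145 CPM at 2 and 61.5 CPM (48.7 to 76.5) at 5 or more. Levels on both sides of the threshold, at 1 and 2 marker UMIs, were 163 and 204 CPM for Bcl11b and 325 and 239 CPM for Tcf7. Median UMIs per cell over the 6 steps were 3633, 3128, 2914, 3160, 3572 and 3943.5, which is neither a rise nor a fall throughout.

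**Figure D4:**
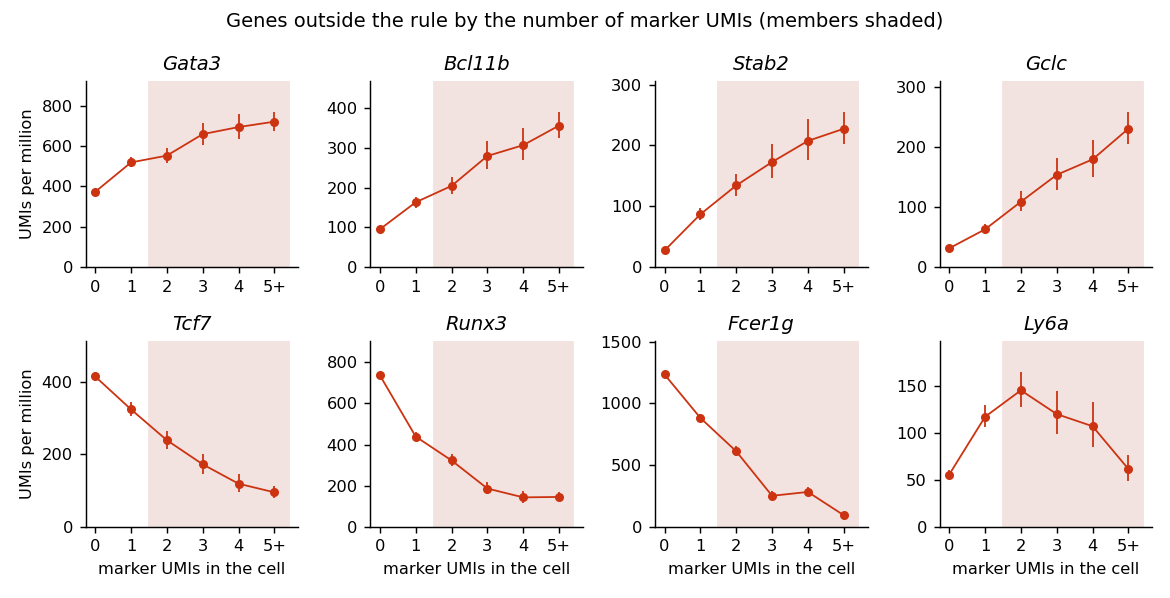
Level of 8 genes outside the rule, in CPM (y axes start at 0), by the number of marker UMIs in the cell (x axis), for bone marrow cells that met the other conditions, with exact Poisson 95% intervals and the members shaded. Gata3, Bcl11b, Stab2 and Gclc were higher at each step, Tcf7 was lower at each step, and Ly6a was highest at 2 marker UMIs.

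Members with 5 or more marker UMIs differed from those with 2 past 2-fold in 30 of 2381 genes (1.26%), 11 higher and 19 lower. Cd7, a surface molecule of early lymphoid and ILC progenitors, stood at 5.38 CPM in the first and 53.8 CPM in the second (-3.32, -4.68 to -2.22). Fcer1g (-2.71), Tyrobp (-2.61) and Igfbp7 (-2.54) were lower too. Hells, a chromatin remodeller of dividing cells, stood at 53.8 and 18.6 CPM (1.54).

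Members also divided by single genes of or beside the rule. The 180 members without Icos held more Tyrobp (541 against 205 CPM), Nrgn (312 against 108 CPM), Tcf7 (303 against 141 CPM) and Bcas1 (319 against 125 CPM) than the 1039 with Icos, and less Cxcr6 (47.4 against 142 CPM) and Stab2 (86.3 against 197 CPM). Gata3 was at 525 and 667 CPM. In all, 24 of 2384 genes (1.01%) lay past 2-fold. The 176 members with a Zbtb16 UMI differed from the 1043 without in 50 of 2417 genes (2.07%), 25 in each direction. They held less Cxcl2 (73.9 against 481 CPM), Ly6a (21.5 against 130.2 CPM) and Ccr9 (28.6 against 139.8 CPM), and more Igfbp4 (391 against 129 CPM), Fcer1g (745 against 248 CPM) and Tcf7 (346 against 125 CPM), while Bcl11b was at 286 and 277 CPM. Cells with Zbtb16 were the deeper ones, with medians of 4149.5 and 3257 UMIs. The 349 members with 1 late UMI differed from the 870 with none in 9 of 2346 genes (0.384%), Ly6a being higher at 213 against 71.5 CPM and Bhlhe40 at 131 against 55.2 CPM.

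Markers of other cell types were low in members with a few named exceptions. Of 9 T and NKT cell markers in the file, 6 had a UMI, Cd3e, Cd4 and Cd5 were at 0, and their sum was 15.1 CPM, within the 14.1 to 45.6 CPM of the other bone marrow sets. Sdc1 and Itgb3 are also known from plasma cells and platelets. The plasma cell list summed to 34.7 CPM, of which Xbp1 gave 27.9 CPM, with Mzb1, Irf4 and Tnfrsf17 at 0, and the megakaryocyte and platelet list summed to 6.36 CPM, with Gp9, Gp1ba, Gp6 and Vwf among the genes at 0. Among B cell markers Cd79b alone reached 10 CPM, at 37.3 CPM, and Ms4a1 and Cd22 were among those at 0. Of 10 mast cell and basophil markers 7 were at 0, while Cpa3, also seen in early progenitors, stood at 98.7 CPM. The monocyte and granulocyte list summed to 602 CPM in members and 2406 CPM in Zbtb16-positive cells, led by Fcer1g, with Csf1r, Elane and Ctsg at 0 in members, and erythroid markers summed to 45.0 CPM, with Klf1 among those at 0. The plasmacytoid list summed to 320 CPM, led by Ccr9, with Siglech at 0, and the stem cell list to 396 CPM, led by Hlf, with Mecom and Gata2 at 0. The part of these genes in the ratios above was not tested.

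The same rule, applied unchanged, selected 1142 of 8583 fetal liver cells (13.3%, 12.6 to 14.0) with a median of 9787 UMIs. In these cells Icos was seen in 94.7%, Itgb3 in 35.8%, Il17rb in 18.3%, Sdc1 in 6.30% and Stxbp6 in 4.20%, with a higher median depth than in bone marrow. As levels, Il17rb stood at 100.3 CPM in bone marrow members and 21.7 CPM in fetal liver cells, Stxbp6 at 133 and 7.13 CPM, Sdc1 at 64.7 and 7.13 CPM and Icos at 597 and 407 CPM. Icos gave 60.7% of the marker UMIs of the selected cells in bone marrow and 83.0% in fetal liver. The cutoffs of the rule count UMIs, so at unlike depths they do not stand for the same level. The levels and shares of rule genes are thus not compared on like terms, and the part of depth in them was not tested. The same cutoffs chose the cells behind the ratios below, so these too compare sets chosen at unlike depths. Among cells with enough marker UMIs and fewer than 2 late UMIs, the division cutoff met 709 in fetal liver and 54 in bone marrow. Tissue, age and library cannot be told apart here, and neither can the sex of the animals: Xist, the RNA of the inactive X chromosome, had 0 UMIs in bone marrow members and 2795 in fetal liver cells.

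Of 2579 genes that reached 50 CPM on the higher side, 293 (11.4%) were at least 2-fold higher in members from bone marrow and 229 (8.88%) at least 2-fold lower, around a median log2 ratio of -0.19. TMM scaling, which moved all ratios by 0.173, gave 230 higher and 354 lower. With each cell thinned to 2000 UMIs before the rule, 373 of 2628 genes were higher and 330 lower. Of 9 ILC2 transcription factors, 6 lay past 2-fold on the bone marrow side and 0 on the other, with a median of 1.39, where 14.1% of the 6954 genes that reached 10 CPM were higher and 8.34% lower. Gata3 stood at 645 CPM in bone marrow members and 201 CPM in fetal liver cells (1.68, 1.60 to 1.76), Maf at 423 and 118 CPM (1.84), and Rora at 996 and 380 CPM (1.39). Tcf7 was at 165 and 216 CPM (-0.38).

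The list counts that follow stand beside 14.1% of the 6954 genes higher and 8.34% lower. Of 11 cytokine receptor genes 4 lay past 2-fold on the bone marrow side and 0 on the other. Il7r stood at 581 and 202 CPM (1.52) and Il18r1 at 428 and 80.3 CPM (2.42). Of 12 ILC2 surface and effector genes 6 were higher and 2 lower, with a median of 1.15. Ramp1, the partner chain of the receptor for the peptide that Calca encodes, stood at 270.1 and 33.5 CPM (3.01). Calca itself was at 113 and 29.9 CPM (1.91). Of the interleukin 25 receptor pathway 4 of 7 genes were higher and 0 lower, with Il17ra at 33.8 and 11.1 CPM (1.60), and of ICOS signalling 3 of 10 were higher and 0 lower. Cxcr6 was nearly even at 127 and 118 CPM (0.11, -0.03 to 0.25). Of 10 chemokine and egress genes 4 were higher, with Cxcr4 at 37.1 and 4.69 CPM (2.98), and 1 was lower, Cxcr3 with 1 and 347 UMIs. Of 11 costimulatory and checkpoint receptors 2 were higher and 3 lower, Tnfrsf9 among the latter at 1.54 and 98.7 CPM (-6.01). Il13 went the other way, with 4.39 and 32.8 CPM (-2.90, -3.63 to -2.25).

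All 15 immediate early genes compared lay past 2-fold on the bone marrow side, with a median of 2.11, led by Fosb at 964 and 132 CPM (2.86) and Egr1 at 483 and 68.6 CPM (2.82). Of 16 S phase genes 14 were lower past 2-fold, with a median of -1.47, and of 10 G2 and M phase genes 8 were, with Ccnb2, a mitotic cyclin, at 12.1 and 85.6 CPM (-2.83). All 5 MHC class II genes compared were higher in bone marrow, with H2-DMa at 33.4 and 2.52 CPM (3.73). Of 9 NK and ILC1 genes 4 were lower and 1 higher, Gzma standing at 1.97 and 95.8 CPM (-5.60) and Klrd1 at 11.4 and 188 CPM (-4.04). Cd3g stood at 1.54 and 497 CPM (-8.34), and the 9 T and NKT cell markers together at 15.1 and 582 CPM, the fetal sum being close to the 571 CPM of fetal Zbtb16-positive cells.

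Several genes were at or near 0 in bone marrow members. H19, an imprinted RNA of the embryo, had 0 UMIs in bone marrow members and stood at 169.9 CPM in fetal liver cells, at least 8.01 lower on the log2 scale when 3 counts are put in place of 0. Cck, the gene of the peptide cholecystokinin, was at 0 and 162 CPM, at least 7.95 lower. Ifitm1 stood at 0.439 and 762 CPM from 2 and 8775 UMIs. On the other side were Bcas1 at 154 and 1.91 CPM (6.33), Ctla2a at 326 and 11.2 CPM (4.86), Klf4 at 316 and 22.8 CPM (3.79) and Hlf at 129 and 10.3 CPM (3.64). H2-Q7 and H2-Q6 were also higher (4.77 and 4.68), but these genes are near-identical copies between which reads can be split, so their values are uncertain.

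**Figure D5:**
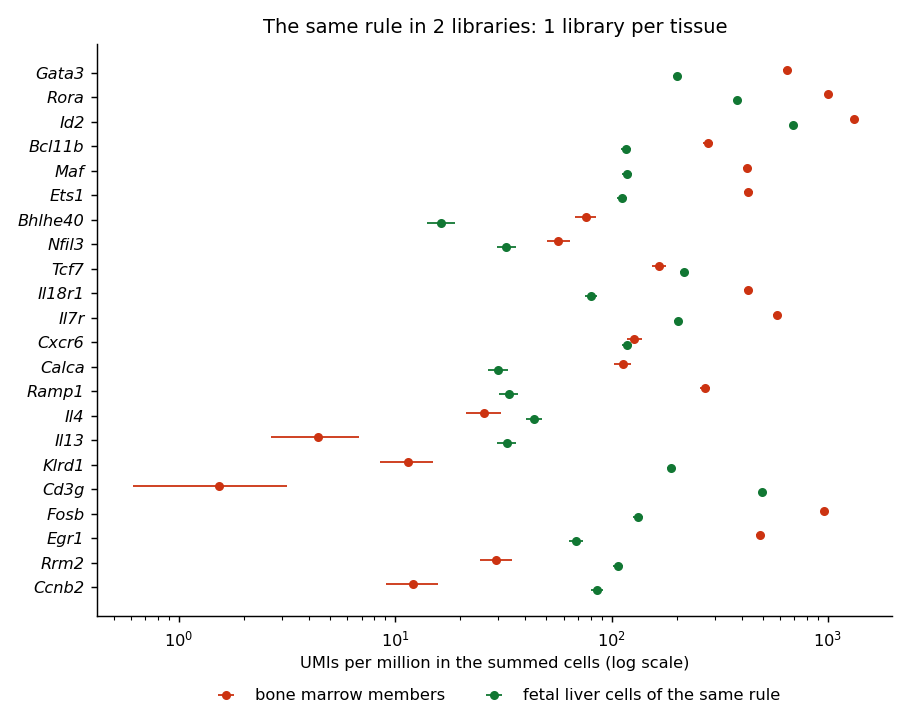
Level of 22 genes (y axis) in bone marrow members (red) and in fetal liver cells of the same rule (green), in CPM on a log axis with exact Poisson 95% intervals for counting error, 1 library per tissue. Gata3 stood at 645 and 201 CPM, Fosb at 964 and 132 CPM and Cd3g at 1.54 and 497 CPM.

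The ratio of selected over Zbtb16-positive cells was also taken inside the fetal liver library, which shares no cells with bone marrow. With 690 fetal Zbtb16-positive cells as the base, Calca stood at 29.9 against 2.46 CPM (3.60), Stab2 at 36.1 against 3.33 CPM (3.44), Pxdc1 at 27.8 against 6.80 CPM (2.03) and Skap1 at 125 against 32.7 CPM (1.94). Gclc (1.72), Hlf (1.70) and Cxcr6 (1.06) were past 2-fold too. Ly6a (0.92), Ccr9 (0.91) and Cxcl2 (0.12) were not, although all 3 had log2 ratios over 3 in bone marrow. Among other genes named above, Il4 (1.09) was past 2-fold. Bhlhe40 (-0.06) and Ifngr2 (-0.07) were even, against 1.99 and 2.11 in bone marrow. Cd200r1 (-0.99) went the other way from its 2.38 in bone marrow, and Tnfrsf25 stood at 0.35 against 2.93. On the lower side Tnni1 (-1.51), Fgf3 (-2.39), Nrgn (-1.21) and Runx3 (-1.11) lay past 2-fold, and Fcer1g (-0.91) and Tyrobp (-0.92) under it. Bcl11b stood at 117 against 75.5 CPM (0.63) and Gata3 at 201 against 135 CPM (0.58), the latter near its 0.56 in bone marrow. Among the 1817 genes that reached 50 CPM in the comparisons of both libraries, 8 were at least 2-fold higher and 7 lower in the fetal comparison. Calca, Stab2, Pxdc1, Hlf, Ly6a, Fgf3, Il4, Bhlhe40, Ifngr2, Cd200r1 and Tnfrsf25 did not reach 50 CPM in fetal liver. They are not among the 1817.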

How the data were processed

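Single cells of sorted mouse α4β7-positive progenitors were measured with 1 droplet library per tissue. Per the labels' protocols, the authors used a Chromium Single Cell 3' kit, counted UMIs and removed barcodes without a cell. The deposited matrices hold raw UMI counts; per the file headers they were written by software version 3.0.1 in format version 2. The submitters' processing notes name mm10 and Seurat 4.0. No aligner or annotation release is named (not given in the sources used here). Deposited gene and barcode lists hold names only (other). Of 27998 gene identifiers, 27645 matched GENCODE M21.

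Cells with at least 500 genes and at most 10% mitochondrial UMIs were kept, 7258 of 7367 bone marrow and 8583 of 8946 fetal liver barcodes. No doublet caller was used; leaving out the 5% of cells with the most UMIs was an alternative. Counts were summed per set of cells, divided by the set's total and multiplied by 1000000. Log2 ratios carry exact conditional 95% intervals for counting error. Neighbours were found among 2000 variable genes with numpy 2.4.6 and scikit-learn 1.9.0, and TMM factors came from edgeR 4.0.16. The ratio, its interval and the neighbour search were tested on simulated data.

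Named genes were the 10 largest and 10 smallest ratios with at least 50 CPM in the higher set and, from each of 26 lists, up to 4 members with at least 10 CPM and the largest absolute ratio. ILC2 and common progenitor factors of at least 50 CPM in members were added. Ribosomal, mitochondrial and unnamed genes were passed over. Genes named in splits of the members, in the gradient, in thinned shares and in the fetal contrast, and list members or genes at 0 named beside these, were chosen after their values were seen. Members and lists were chosen with earlier results of these data known. Alternatives changed the rule, the depth, the scaling, the CPM minimum and the neighbour settings; 1 more, leaving out each gene's highest cell, was added after the data were seen. Some genes that the rule took are left out of the text.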

Additional observations from a re-analysis of the deposited data

How the results depend on the processing

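Every value here rests on 1 library per tissue, so the spread between animals is unknown. No paired analysis was possible because each tissue has 1 library and no test was made. Of 126 alternative counts and shares, 93 stayed within counting error or 1.5 times the main value and 33 moved. The cause of these moves was not tested beyond what a setting itself changes. Of 192 gene ratios past 2-fold, 132 of 3323 alternative values fell under 2-fold, in 55 of the ratios, and 11 of the 3323 reversed in sign. Sign changes of ratios under 2-fold were not counted. Depth limits genes under about 10 CPM.

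The share of members was 10.2% with at least 3 marker UMIs, 30.1% with at least 1, 11.99% with 0 late UMIs, 18.0% with at least 1000 genes, 13.1% when thinned, and without Icos, Il17rb, Sdc1, Stxbp6 or Itgb3 in the sum it was 7.21%, 15.2%, 15.7%, 15.1% or 15.03%. Members made up 43.9% of their neighbours with rule genes kept and 34.1% when thinned. When thinned, Il1rl1 or Areg cells gave 22.9% of the members' neighbours and 14.8% of the cells, and Zbtb16-positive cells 12.6% and 15.7%.

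With a minimum of 20 CPM the counts higher and lower were 163 and 91 against Zbtb16-positive cells, 44 and 65 against Il1rl1 or Areg cells and 624 and 422 against fetal liver cells. With 100 CPM they were 45 and 19, 13 lower against Il1rl1 or Areg cells, and 160 and 128. Against Zbtb16-positive cells 27 genes were lower with at least 1 marker UMI and 66 when thinned. Against Il1rl1 or Areg cells 25 were higher with at least 1 marker UMI, 7 with 0 late UMIs, 6 with at least 1000 genes, 24 when thinned, 24 without Icos and 25 with equal weights, and 41 were lower without Icos. TMM gave 354 lower against fetal liver cells.

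Reversed against Zbtb16-positive cells were Ccl4 (0.65) and Klrd1 (1.05) with at least 1 marker UMI, Klrd1 (0.35) with at least 2 UMIs of Zbtb16, Ccnb2 (-0.11) without Icos, and Pf4, at 1.67 when thinned, 1.46 without the deepest 5% of cells, 1.14 with 2 UMIs of Zbtb16 and 0.92 without its highest cells. Against Il1rl1 or Areg cells Klrd1 was at 0.18 with at least 1 marker UMI, and Pf4 (0.90) and Prss34 (1.48) reversed without their highest cells. Against the same cells, the NK and ILC1 list's median of -1.17 became 0.18 with at least 1 marker UMI, 0.13 when thinned and 0.79 at 100 CPM.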
